A study of Mus musculus with 8 samples.

Results

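Peroxisomal fatty acid oxidation was followed here through 8 genes in quadriceps (QUAD) muscle of mice given D-gal, whose hind limbs had received either PBS or mesenchymal stromal cells (MSCs). The genes, Abcd2, Abcd3, Acox3, Ehhadh, Hsd17b4, Acaa1a, Phyh and Crot, were chosen by name for their place in the pathway, and all 8 are among the 12171 genes of the count table. The animals were male C57BL/6J mice, 6 weeks old on arrival, which were acclimatised for 1 week and then given daily subcutaneous D-gal at 100 mg/kg for 12 weeks. D-gal is a sugar used to induce features of ageing. Both groups carry this exposure, and the comparison holds no mice without D-gal and no naturally aged mice. D-gal + MSCs mice (n = 4) received human umbilical cord MSCs in PBS, at a stated 1000000 cells per mouse. These were injected into the QUAD and other hind limb muscles in 6 cycles, 7 days apart. PBS without cells was injected in D-gal + PBS mice (n = 4). 1 library was made per mouse, and the comparison asks which transcripts differ after MSC injection.

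Peroxisomes are small organelles that begin the breakdown of fatty acids which mitochondria handle poorly, such as very long-chain and branched-chain fatty acids. ABC transporters bring the acyl-CoA in, an oxidase makes hydrogen peroxide in the first step, a bifunctional enzyme carries out the next steps, and a thiolase cuts off acetyl-CoA. The shortened chains leave as carnitine esters for the mitochondria. Many of these genes are known targets of the nuclear receptor PPARα in rodent liver, where the transcripts of several are more abundant than in muscle. No liver was sequenced here.

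Total counts ranged from 32772221 to 40057968 per library, and the 8 genes had 234 to 11072 counts in a library, so counting error alone reached 6.54% for the lowest value. All 8 muscle fibre markers were measured, with a summed level of 88082 to 144018 CPM, which fits muscle, while of 6 hepatocyte markers only Alb was in the table, at 0.302 to 12.9 CPM. Mitochondrially encoded transcripts took 13.9% to 18.6% of the counts in D-gal + PBS mice and 22.6% to 36.6% in D-gal + MSCs mice, with D-gal + MSCs replicate 4 the highest. Levels are therefore given as counts per 1000000 (CPM) of the TMM-scaled library, a scaling that corrects for such composition, and values with library totals alone are given beside results that change with it. The log2 fold change (log2FC, D-gal + MSCs over D-gal + PBS) had a median of -0.00 over all genes with TMM and of -0.19 under library totals. P-values measure the spread between mice, each sequenced in 1 library. As whole muscle was sequenced, fewer cells of a type and less RNA per cell cannot be told apart.

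Ehhadh and Abcd3 were higher in every D-gal + MSCs mouse than in any D-gal + PBS mouse, and Phyh had a similar fold change with overlapping groups. Hsd17b4, Acox3, Acaa1a and Abcd2 had small differences, and Crot was the only one of the 8 with a negative log2 ratio of the groups. None of the 8 passed an adjusted p under 0.05 in edgeR's quasi-likelihood test, in which 0% of all genes were called. At wider thresholds, with |log2FC| of 0.5 or more and p below 0.05 before adjustment, 2 of the 8 were higher, Ehhadh and Phyh, against 3.76% of all genes, and 0 were lower, against 3.06%. When 1 mouse was left out, the count of 2 fell to 1 (PBS mouse 1, PBS mouse 2 or MSCs mouse 4) or 0 (PBS mouse 3). It rose to 3 with PBS mouse 4, MSCs mouse 2 or MSCs mouse 3 left out, and it was 0 under library totals. An unadjusted p under 0.05 was reached by 3 of the 8, and by 10.7% of all genes. With TMM, a log2FC above 0 was found in 7 of the 8, whose median was 0.23, and in 49.5% of all genes. Under library totals it was found in 4 of the 8. The median over all genes was then -0.19, and their share above 0 was not counted. Unadjusted, 1308 of the 12171 genes had p below 0.05 in edgeR, and limma-voom also called 0 genes after adjustment.

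**Figure D1:**
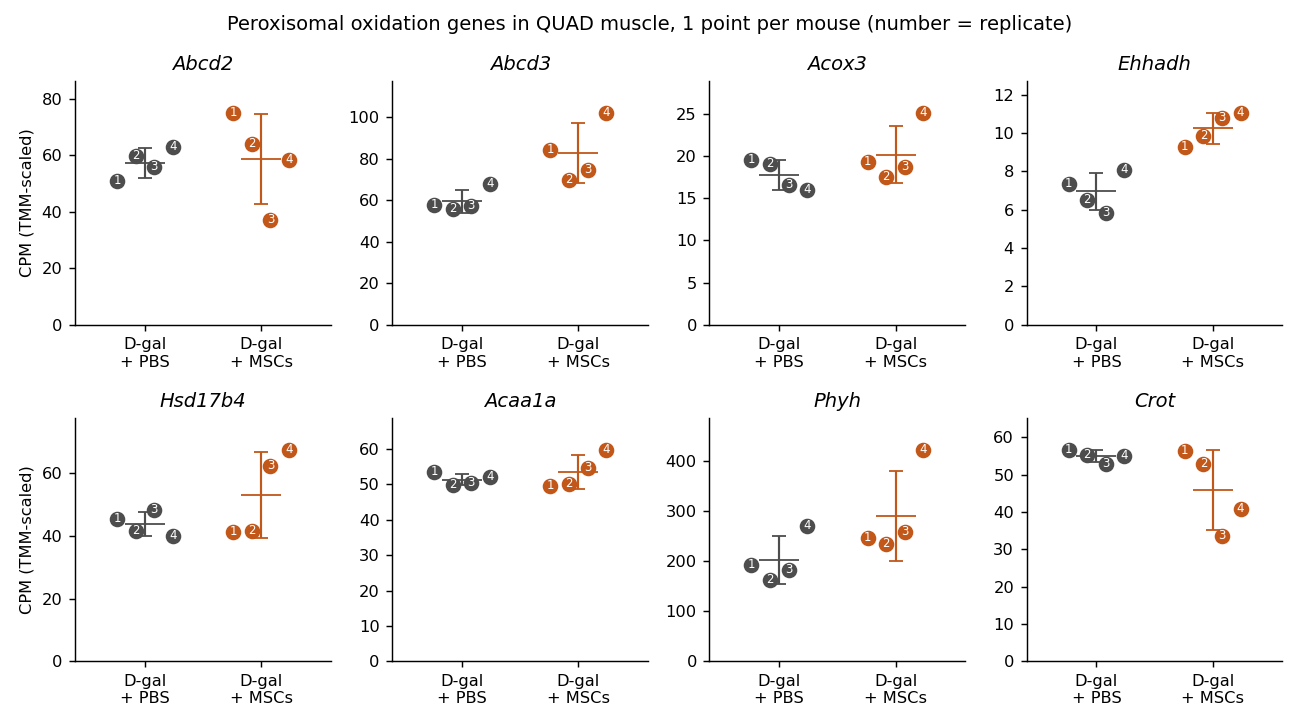
TMM-scaled CPM of each gene (y axis, from 0) in D-gal + PBS and D-gal + MSCs mice, with 1 numbered point per mouse and the mean and SD of each group (n = 4). Ehhadh and Abcd3 are the 2 genes whose groups do not overlap, and the low Crot values belong to D-gal + MSCs replicates 3 and 4.

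Abcd3 encodes an ABC transporter of the peroxisomal membrane that carries branched-chain and dicarboxylic acyl-CoA. Its level was 57.6, 55.6, 57.4 and 67.8 CPM in D-gal + PBS replicates 1 to 4 and 84.3, 69.7, 74.8 and 102 CPM in D-gal + MSCs replicates 1 to 4, the order used for all genes here. The groups did not overlap, and the narrowest gap was from 67.8 to 69.7 CPM, less than the SD of either group. Of all genes 3.09% were higher and 3.19% lower without overlap, and of these 8 genes 2 were higher and 0 lower. Abcd3 was 1.39-fold higher (log2FC 0.47, standard error (SE) 0.14, edgeR adjusted p = 0.231). With library totals alone its levels were 61.7 to 64.9 CPM in D-gal + PBS mice and 69.8 to 84.4 CPM in D-gal + MSCs mice, again without overlap, which 1.27% of all genes showed in this direction and 8.45% in the other. The log2FC was then 0.28 (SE 0.11, edgeR adjusted p = 0.305).

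Abcd2 encodes a related transporter with a preference for very long-chain and polyunsaturated acyl-CoA. Abcd2 had 50.9, 59.8, 55.6 and 62.9 CPM in D-gal + PBS mice and 75.0, 64.1, 37.0 and 58.3 CPM in D-gal + MSCs mice. Its highest and its lowest level were both in D-gal + MSCs mice, replicates 1 and 3, so the SD was 16.0 CPM there against 5.23 CPM in D-gal + PBS mice. The group means, 58.6 and 57.3 CPM, differed by less than this spread (log2FC 0.03, SE 0.19). The sign of this value was negative under library totals (-0.15).

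Ehhadh encodes the L-bifunctional enzyme, which hydrates and dehydrogenates the acyl chain and is a widely used marker of PPARα activity in rodent liver. Its level was 7.37, 6.53, 5.82 and 8.09 CPM in D-gal + PBS mice and 9.30, 9.87, 10.8 and 11.1 CPM in D-gal + MSCs mice. The lowest D-gal + MSCs mouse lay above the highest D-gal + PBS mouse. The means were 6.95 ± 0.990 CPM (SD, n = 4) and 10.3 ± 0.814 CPM (SD, n = 4), a 1.47-fold difference (log2FC 0.56, SE 0.16, edgeR adjusted p = 0.231). With library totals alone the groups still did not overlap, at 6.47 to 7.88 and 8.40 to 10.9 CPM, and the log2FC was 0.38 (SE 0.19). In DESeq2, which called 2.46% of all genes at an adjusted p under 0.05, Ehhadh and Abcd3 had adjusted p = 0.0554 and 0.0659. Under all alternatives run the log2FC of Ehhadh stayed between 0.38 and 0.64.

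Hsd17b4 encodes the D-bifunctional enzyme, which performs the same steps on the other stereoisomer and serves branched chains and bile acid precursors. Hsd17b4 had 45.3, 41.6, 48.2 and 40.1 CPM in D-gal + PBS mice and 41.1, 41.7, 62.2 and 67.5 CPM in D-gal + MSCs mice. D-gal + MSCs replicates 1 and 2 lay among the D-gal + PBS mice and replicates 3 and 4 above all of them. The log2FC was 0.28 (SE 0.17, edgeR adjusted p = 0.590) and was -0.08 with D-gal + MSCs replicates 3 and 4 left out together, a choice made after seeing the data. Under library totals it was 0.07. D-gal + MSCs replicate 4, at 51.3 CPM, then lay within the D-gal + PBS range of 38.4 to 53.6 CPM.

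The oxidase of the first step and the thiolase of the last had small differences. Acox3, the oxidase of branched-chain acyl-CoA, had 19.5, 19.0, 16.5 and 16.0 CPM in D-gal + PBS mice and 19.3, 17.5, 18.7 and 25.1 CPM in D-gal + MSCs mice. Only D-gal + MSCs replicate 4 lay above the D-gal + PBS range, and the log2FC, 0.18 (SE 0.14), was -0.03 under library totals. Acaa1a, a peroxisomal thiolase, had 53.4, 49.8, 50.4 and 52.0 CPM in D-gal + PBS mice and 49.7, 50.0, 54.7 and 59.9 CPM in D-gal + MSCs mice. Its means, 51.4 ± 1.64 CPM (SD, n = 4) and 53.6 ± 4.78 CPM (SD, n = 4), differed by less than the spread among D-gal + MSCs mice (log2FC 0.06, SE 0.10), with a value of -0.13 under library totals. Acaa1a has a close paralogue, Acaa1b, whose reads the authors' counting could have split or shared, so its level is less certain.

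Phyh encodes phytanoyl-CoA hydroxylase, which starts the alpha-oxidation of phytanic acid, a branched fatty acid of the diet. Phyh had 193, 162, 182 and 271 CPM in D-gal + PBS mice and 246, 235, 258 and 424 CPM in D-gal + MSCs mice. D-gal + PBS replicate 4 was above 3 of the 4 D-gal + MSCs mice, and D-gal + MSCs replicate 4 stood far above all others. The difference was 1.44-fold (log2FC 0.52, SE 0.22, edgeR adjusted p = 0.423). It was 0.28 (SE 0.17) without D-gal + MSCs replicate 4 and 0.32 under library totals.

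Crot encodes carnitine octanoyltransferase, which turns the shortened chains into carnitine esters for export to mitochondria. Its level was 56.7, 55.3, 52.8 and 54.9 CPM in D-gal + PBS mice and 56.4, 52.8, 33.5 and 40.8 CPM in D-gal + MSCs mice. The D-gal + PBS mice had an SD of 1.61 CPM, the smallest of the 8 genes relative to its mean, and D-gal + MSCs replicates 1 and 2 lay within their range or just at its lower end. Replicates 3 and 4 lay below every other mouse. Crot had a log2FC of -0.26 (SE 0.16, edgeR adjusted p = 0.577) and -0.43 (SE 0.19) under library totals. With D-gal + MSCs replicates 3 and 4 left out the value was -0.01 (SE 0.11).

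**Figure D2:**
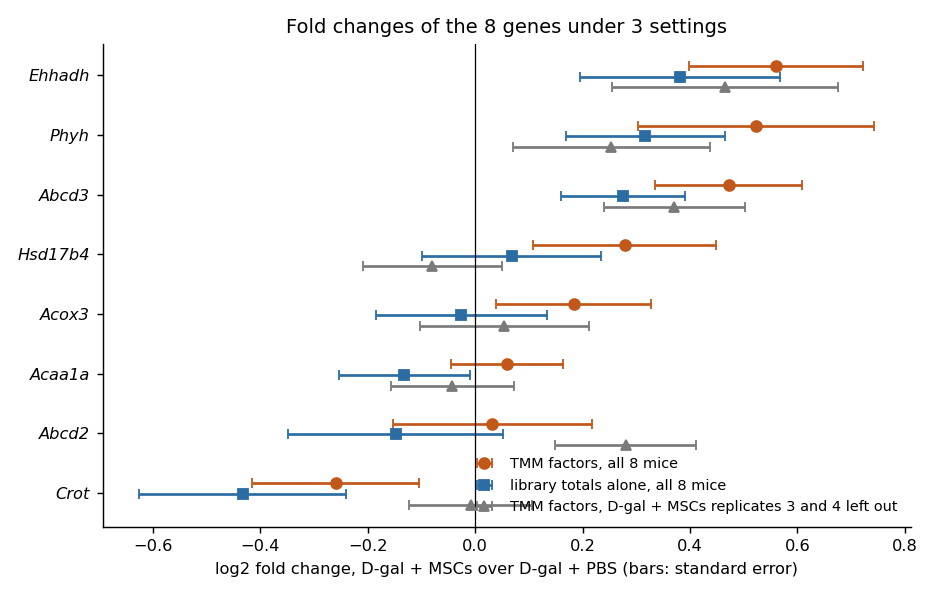
Log2FC of each gene, D-gal + MSCs over D-gal + PBS (x axis), with its SE, under TMM factors, under library totals alone, and with D-gal + MSCs replicates 3 and 4 left out. Ehhadh, Phyh and Abcd3 stay above 0 in each of the 3 settings, and Crot moves from -0.26 to -0.01 when those mice are left out.

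The stretches of DNA before the start sites of Ehhadh, Abcd3 and Crot are shown because Ehhadh and Abcd3 were the genes whose groups did not overlap and Crot the one with a negative log2FC. With TMM and all mice Crot was not past any threshold in edgeR. RefSeq promoter windows were matched by symbol for 6 of the 8 genes, in build GRCm38.p6, and the 250 bases before the start are printed 5′ to 3′ on the gene's strand. Capitals mark the CCAAT box (CCAAT) and the GC box (GGGCGG), read on both strands. These are chr16:21787835-21788084 (minus strand) for Ehhadh, chr3:121815303-121815552 (minus strand) for the more upstream of the Abcd3 windows, and chr5:8997147-8997396 (minus strand) for Crot.
Ehhadh: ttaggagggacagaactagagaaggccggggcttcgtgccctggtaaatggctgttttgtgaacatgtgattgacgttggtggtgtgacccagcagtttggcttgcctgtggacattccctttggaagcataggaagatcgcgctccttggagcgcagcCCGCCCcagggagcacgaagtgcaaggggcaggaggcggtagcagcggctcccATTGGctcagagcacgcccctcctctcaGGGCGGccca
Abcd3: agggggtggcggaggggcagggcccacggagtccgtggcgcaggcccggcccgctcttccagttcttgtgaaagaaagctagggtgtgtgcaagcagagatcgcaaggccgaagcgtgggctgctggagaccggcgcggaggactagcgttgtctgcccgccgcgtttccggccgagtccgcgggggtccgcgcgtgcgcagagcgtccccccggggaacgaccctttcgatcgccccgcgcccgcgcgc
Crot: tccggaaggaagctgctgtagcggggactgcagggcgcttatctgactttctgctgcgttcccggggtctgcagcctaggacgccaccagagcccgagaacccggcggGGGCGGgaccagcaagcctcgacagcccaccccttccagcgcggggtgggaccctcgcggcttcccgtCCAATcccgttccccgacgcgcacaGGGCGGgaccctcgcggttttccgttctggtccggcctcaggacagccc
Ehhadh and Crot each held 1 CCAAT box and 2 GC boxes, and the Abcd3 window held neither, while 33.8% and 32.7% of all 32851 windows of this length hold the CCAAT box and the GC box. The Abcd3 window had 34 CpG dinucleotides, Crot 25 and Ehhadh 12, against a median of 6 over all windows. The element bound by PPAR with its partner RXR, a direct repeat of AGGTCA with 1 base between the copies, was in 0 of the 7 windows of these 6 genes and in 0.0335% of all windows on either strand. With any base allowed at the fourth position of each copy (AGGNCA) it was in 0 and in 0.338%. A window this short says nothing of sites elsewhere.

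Counts of a pair of genes in the same library can be divided, which removes the scaling of libraries from the comparison. The ratio compares mice with each other and not the abundance of the genes, whose lengths differ. Ehhadh over Crot was 0.130, 0.118, 0.110 and 0.147 in D-gal + PBS mice and 0.165, 0.187, 0.322 and 0.272 in D-gal + MSCs mice. Every D-gal + MSCs mouse therefore had more Ehhadh per Crot count than any D-gal + PBS mouse, replicates 1 and 2 included. Abcd3 over Crot was 1.02, 1.00, 1.09 and 1.23 in D-gal + PBS mice and 1.49, 1.32, 2.23 and 2.51 in D-gal + MSCs mice, also without overlap. Ehhadh over Acaa1a was 0.138, 0.131, 0.116 and 0.156 against 0.187, 0.198, 0.198 and 0.185, and the 4 D-gal + MSCs values were close together. Acaa1a over Abcd3 was 0.927, 0.895, 0.878 and 0.767 against 0.590, 0.718, 0.731 and 0.586. These were the 4 of the 28 pairs, or 14.3%, whose groups did not overlap, while 7.14% of all pairs of genes in the table show no overlap. The pairs share genes and carry no test.

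**Figure D3:**
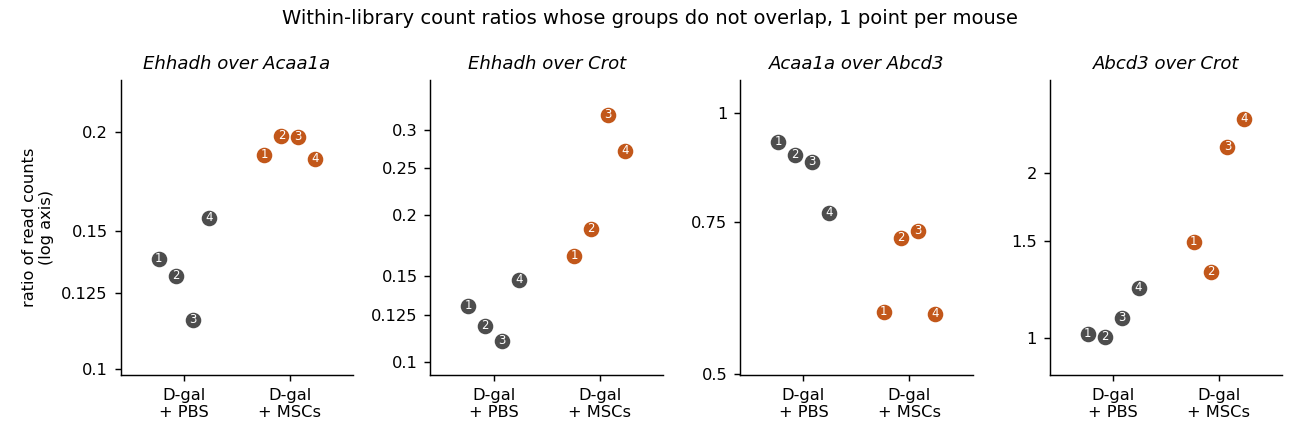
Ratio of read counts of a pair of genes in the same library (y axis, log scale), with 1 numbered point per mouse, for the 4 of 28 pairs whose groups do not overlap. Ehhadh and Abcd3 are high relative to Crot and to Acaa1a in every D-gal + MSCs mouse.

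Genes with parallel roles were also set against each other, in 4 pairs of which 3 are given. The log2 ratio of Abcd2 to Abcd3, both transporters, was -0.06 ± 0.12 (SD, n = 4) in D-gal + PBS mice and -0.53 ± 0.45 (SD, n = 4) in D-gal + MSCs mice. The difference was -0.47 (SE 0.23, two-sided exact permutation test, p = 0.0857, adjusted over 4 pairs p = 0.286), and replicates 3 and 4, at -1.02 and -0.81, were the lowest. Ehhadh over Hsd17b4 differed by 0.32 (SE 0.20, exact permutation test, p = 0.143, adjusted p = 0.286), with overlapping groups. Crot over Crat, the carnitine acetyltransferase, differed by -0.42 (SE 0.32, exact permutation test, p = 0.314, adjusted p = 0.343) and by 0.07 with D-gal + MSCs replicates 3 and 4 left out. None of the 3 passed 0.05, and the smallest p this design allows is 0.0286.

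D-gal + MSCs replicates 3 and 4, which had the high Hsd17b4 and low Crot levels, also had the highest summed level of slow fibre markers. All 8 of these markers were measured, and the sum was 5861 and 11567 CPM in these mice, 2683 and 2277 CPM in D-gal + MSCs replicates 1 and 2, and 864 to 2367 CPM in D-gal + PBS mice. Most of it was Mb, the myoglobin gene, at 5455 and 9118 CPM in replicates 3 and 4. The other slow fibre markers set replicate 4 apart, and replicate 3 only in part. In replicate 3 Myl3, Myl2 and Atp2a2 were at 213, 32.2 and 111 CPM. Outside D-gal + MSCs replicates 3 and 4 they reached at most 45.0, 13.6 and 64.9 CPM. Myh7, the slow myosin heavy chain, had 355 CPM in replicate 4 and 18.8 CPM in replicate 3, against 22.3 CPM in D-gal + PBS replicate 1, and Tnnt1, Tnni1 and Tnnc1 were likewise lower in replicate 3 than in that mouse. Of the 8 muscle fibre markers 0 had a log2FC above 0, and the median was -0.28. Among them Myh4 had 9614 and 10472 CPM in replicates 3 and 4 and 16566 to 19816 CPM in the other 6 mice. Pvalb had 7490 and 6815 CPM against 9887 to 14413 CPM, and the rest of that list did not set these mice apart. The 17 genes of mitochondrial beta-oxidation summed to 3897 and 6365 CPM in replicates 3 and 4 and to 2085 to 2895 CPM in the other 6 mice. Hsd17b4 was at 62.2 and 67.5 CPM in these mice and at 40.1 to 48.2 CPM in the others, and Crot at 33.5 and 40.8 CPM and at 52.8 to 56.7 CPM. Under library totals Hsd17b4 was at 51.3 CPM in replicate 4, within the D-gal + PBS range of 38.4 to 53.6 CPM. Ehhadh and Abcd3 did not divide the mice in this way, since their levels in D-gal + MSCs replicates 1 and 2 were already above the D-gal + PBS range. In D-gal + MSCs replicates 3 and 4 the fat cell hormone gene Adipoq had 0 counts, against 1.95 to 29.0 CPM in the other 6 mice, and the slow fibre markers Tnni1 and Myl2 had 0 counts in D-gal + PBS replicate 2. Adipocyte markers (5 of 6 measured, Lep not in the table) summed to 268 to 620 CPM in D-gal + PBS mice and 266 to 480 CPM in D-gal + MSCs mice, but Fabp4, which endothelial cells also express, made up 242 to 479 CPM of this. The others, Adipoq, Plin1, Cidec and Cfd, were all at or below 0.682 CPM in D-gal + MSCs replicates 3 and 4 and highest in D-gal + PBS replicate 2. The median log2FC of the 5 was -2.49, but 0.09 with D-gal + PBS replicate 2 left out. At the wider thresholds 0 of the 5 were higher and 0 lower. Fibroblast markers (5 of 5) had 705 to 1431 and 495 to 1038 CPM, and macrophage markers (5 of 5) 24.7 to 45.1 and 14.9 to 42.8 CPM. Endothelial markers (5 of 5) had 218 to 482 and 331 to 644 CPM, and erythroid markers (5 of 5) 180 to 575 and 38.4 to 223 CPM. The part of fibre type and of other cell types in these differences was not tested.

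**Figure D4:**
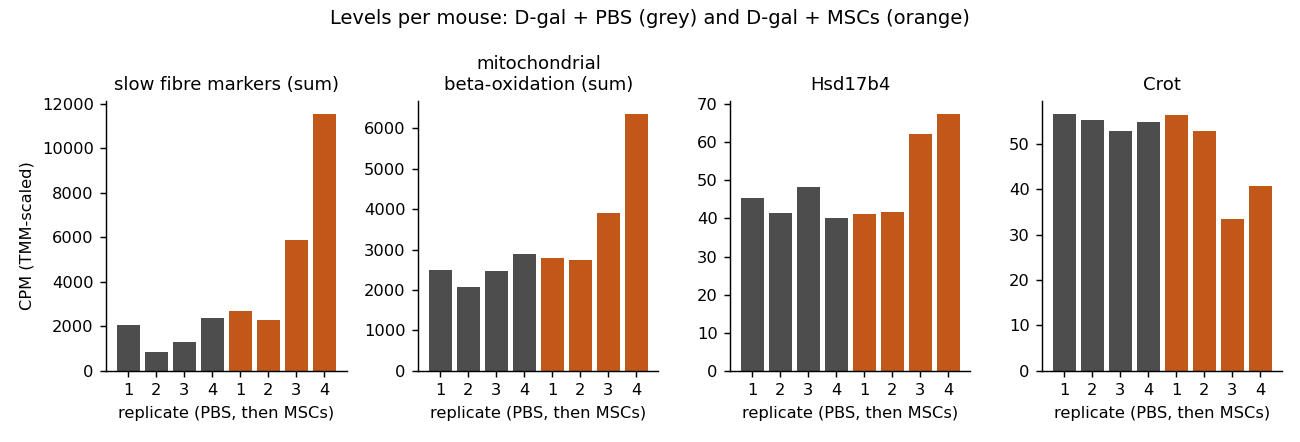
TMM-scaled CPM per mouse (y axes from 0) for the summed slow fibre markers (mostly Mb), the summed mitochondrial beta-oxidation genes, Hsd17b4 and Crot, with D-gal + PBS mice in grey and D-gal + MSCs mice in orange. D-gal + MSCs replicates 3 and 4 have the highest bars in the first 3 panels and the lowest for Crot.

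The other genes of the peroxisomal pathway had differences of both signs. Of 20 further oxidation genes 16 were measured, with a median log2FC of 0.17, and 1 was higher and 0 were lower at the wider thresholds, against 1 and 1 under library totals. The higher gene was Nudt7, a peroxisomal hydrolase of coenzyme A, which had 11.1, 10.3, 13.5 and 10.4 CPM in D-gal + PBS mice and 15.5, 13.8, 25.1 and 39.6 CPM in D-gal + MSCs mice. Its groups did not overlap, and the log2FC was 1.05 (SE 0.30, edgeR adjusted p = 0.243), or 0.37 with D-gal + MSCs replicates 3 and 4 left out. In place of 1 higher gene there were 2 with PBS mouse 3 or 4 left out and 3 with MSCs mouse 1 or 2 left out. Pecr, a peroxisomal enoyl-CoA reductase of chain elongation, had 19.8 to 24.6 CPM in D-gal + PBS mice and 14.4 to 19.6 CPM in D-gal + MSCs mice, a narrow gap (-0.33, SE 0.14). Mlycd, the malonyl-CoA decarboxylase, had a value of 0.50 (SE 0.20) and 0.06 with replicates 3 and 4 left out. Ech1, Amacr, Aldh3a2 and Eci2 had log2FCs of 0.59, 0.33, 0.33 and 0.33, and Decr2, Crat, Acbd5 and Hacl1 of 0.18, 0.15, 0.13 and 0.09, of which those of Crat, Acbd5 and Hacl1 were negative under library totals. Scp2, Acot8 and Nudt19 were between -0.05 and -0.02.

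Among the genes that maintain the organelle, the peroxins had the lowest median log2FC. Of 16 peroxin genes, which import peroxisomal proteins and divide the organelle, 0 passed the wider thresholds in either direction, and the median log2FC was 0.05. Pex6, an ATPase that recycles the import receptor, had the smallest p among them, at 29.3 ± 2.80 CPM (SD, n = 4) and 39.3 ± 4.85 CPM (SD, n = 4) with no overlap (log2FC 0.42, SE 0.13, edgeR adjusted p = 0.243). Pex13 and Pex11a had values of 0.22 and 0.36. Of 12 genes of peroxide handling and membrane shuttles 2 were higher, Cat and Hsdl2, and 0 were lower. The count of higher genes was 1 with PBS mouse 2 or 3 left out and 0 with MSCs mouse 3 or 4 left out. It was 4 with MSCs mouse 1 left out, 3 with MSCs mouse 2 left out, and 0 under library totals. Cat, the catalase that removes the peroxide made by the oxidases, had 89.3, 96.3, 97.6 and 102 CPM in D-gal + PBS mice and 110, 102, 175 and 185 CPM in D-gal + MSCs mice (log2FC 0.57, SE 0.19). Replicates 3 and 4 again stood apart, and without them Cat had a value of 0.14. Hsdl2, a dehydrogenase-like protein, had a value of 0.74 (SE 0.30), or 0.09 without these mice, and Ephx2, the soluble epoxide hydrolase, one of 0.75 (SE 0.36), or -0.06. Pxmp2, a channel of the membrane, had 0.40 (SE 0.14) with no overlap. Of 5 ether lipid genes 0 passed, with a median of 0.14.

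Mitochondrial beta-oxidation, the counterpart of this pathway, had a median log2FC of 0.63, and 11 of its 17 genes were higher at the wider thresholds, 0 were lower and 6 did not pass. When 1 mouse was left out, the 11 became 7 (PBS mouse 1 or 3), 4 (PBS mouse 2 or MSCs mouse 3), 2 (MSCs mouse 4), 14 (PBS mouse 4) or 17 (MSCs mouse 1 or 2). It was 4 under library totals and 0 with PBS mouse 2 and MSCs mouse 4 both left out. Acadvl and Acadl, dehydrogenases of its first step, had values of 0.80 and 1.00, Etfa, which takes up their electrons, 0.68, and Hadha, a subunit of the trifunctional protein, 0.75. With D-gal + MSCs replicates 3 and 4 left out the median of this list was 0.10 and that of the 8 peroxisomal genes 0.15, with 0 genes of either past the wider thresholds. Under library totals the medians were 0.40 and 0.02. The difference between the lists was not tested. Of the nuclear receptor genes Ppara was not in the table, and of the 7 measured 1, the coactivator gene Ppargc1b, was higher (0.93, SE 0.37), at 1.43 ± 0.280 CPM (SD, n = 4) and 2.74 ± 1.29 CPM (SD, n = 4). Rxrg, a partner receptor of PPAR, had a value of -0.40 (SE 0.15), Rxra one of -0.18 and Rxrb one of -0.06, and 0 of the 7 were lower at the wider thresholds. The count of 1 higher gene was 0 with PBS mouse 1, PBS mouse 4, MSCs mouse 3 or MSCs mouse 4 left out, in limma-voom and with the replicate block, and under library totals 0 were higher and 1 was lower.

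**Figure D5:**
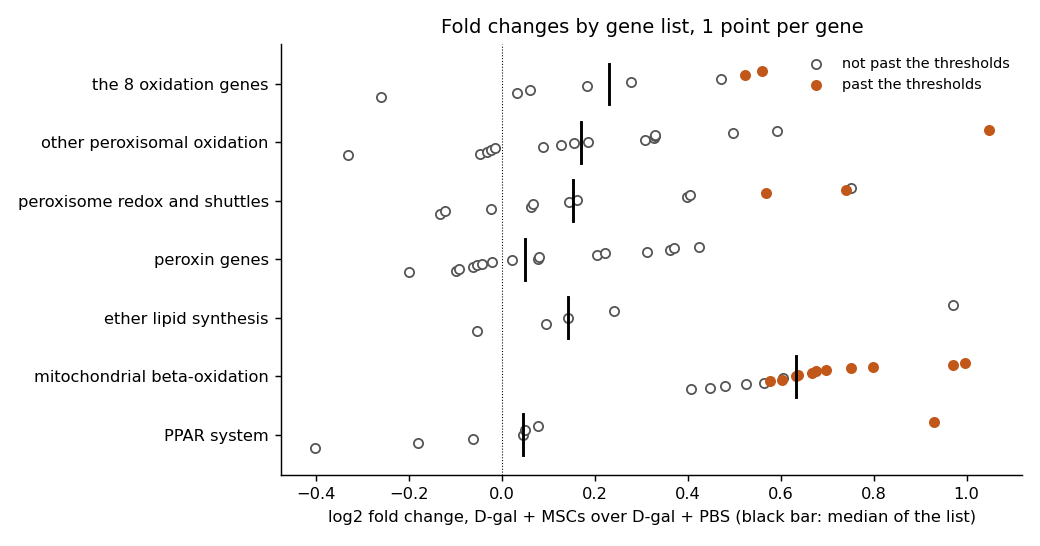
Log2FC of each measured gene (x axis) by gene list, with the list median as a black bar and filled points for genes at an unadjusted p under 0.05 together with |log2FC| of 0.5 or more. The 17 mitochondrial genes lie to the right with a median of 0.63, while the 8 peroxisomal genes have a median of 0.23 and the peroxins 0.05.

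The genes whose pattern over the 8 libraries was most like Ehhadh were Spata7, Rab3ip and Flnc, by the root-mean-square difference of log2 CPM centred on each gene's mean (0.07, 0.09 and 0.12, where the median over all genes was 0.41). For Phyh they were the complex III genes Uqcrc1 and Uqcrfs1 and the mitochondrial dehydrogenase gene Acads (0.10, 0.11 and 0.11, where the median was 0.48). These were picked as the closest of 12171 genes, and the values are a description.

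Per kilobase of annotated exon, Phyh was by far the most abundant of the 8, at 107 ± 25.3 CPM per kb (SD, n = 4) in D-gal + PBS mice. Hsd17b4 and Acaa1a followed at 12.9 ± 1.08 and 11.6 ± 0.371 CPM per kb with overlapping ranges of mean ± SD. Crot, Abcd2 and Abcd3, at 10.1 ± 0.295, 9.64 ± 0.879 and 9.04 ± 0.840 CPM per kb, also had overlapping ranges of mean ± SD. Ehhadh and Acox3 were the lowest, at 2.33 ± 0.332 and 1.54 ± 0.154 CPM per kb. In D-gal + MSCs mice Ehhadh was at 3.44 ± 0.273 CPM per kb, still below all but Acox3. Abcd3, at 12.5 ± 2.17 CPM per kb, had a higher mean there than Crot, at 8.41 ± 1.94 CPM per kb, and Abcd2, at 9.85 ± 2.69 CPM per kb. The lengths are the union of exons in GENCODE vM21, so a gene with long transcripts that muscle does not use, as may hold for the 11521 bases of Acox3, is set too low.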

How the data were processed

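QUAD muscle was sequenced in 8 libraries, 1 per mouse, 4 per group. The authors aligned reads with HISAT2 (version not given in the sources used here) to GRCm39 and deposited raw read counts per gene for 12171 genes in 1 table of counts alone. The sources used here give neither the counter nor the annotation nor the use of strand, so overlapping and antisense genes cannot be told apart. Total counts were 32772221 to 40057968 per library.

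Groups were taken from the sample titles. Counts were fitted with edgeR 4.0.16 in R 4.3.3 (TMM factors, robust quasi-likelihood F-test, Benjamini-Hochberg over all genes), which was tested on simulated data. The low-count filter removed 0 genes. The wider thresholds were an unadjusted p of 0.05 with a |log2FC| of 0.5. CPM were computed from TMM-scaled totals. Ratios within a library were compared by exact permutation over 70 assignments, after adding 0.5 to each count. Alternatives were DESeq2 1.42.0, limma-voom 3.58.1, other scalings, filters and left-out mice. Genes named were the 8 genes, all other peroxisomal oxidation genes, the partners in ratios, the 4 of each pathway list with the smallest p, and the 3 closest in pattern. Ether lipid genes are given as counts and cell type markers as sums, which departs from that rule, and a few genes under it are not reported here. The individual cell type markers were named after their values were seen. The genes, lists and tests were chosen with earlier results of these data known. Promoters are RefSeq sequences of GRCm38.p6. Replicate numbers were not shown to pair mice.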

Additional observations from a re-analysis of the deposited data

Results flagged for a closer look

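Among 24 groups of 4 mice tested for a mouse far from the others, which chance alone finds in about 5% of groups, 2 were found. Phyh in D-gal + MSCs mice had 246, 235, 258 and 424 CPM, and the gap below replicate 4 took 0.879 of the range, past Dixon's limit for 4 values. Abcd3 in D-gal + PBS mice had 57.6, 55.6, 57.4 and 67.8 CPM, and the gap below replicate 4 took 0.834 of the range. Without D-gal + MSCs replicate 4, Phyh had a log2FC of 0.28 in place of 0.52.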

How the results depend on the processing

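Of the 12171 genes, edgeR called 0 after adjustment (1308 at an unadjusted p under 0.05), DESeq2 300, median-of-ratios factors 7, library totals 7, a minimum of 10 counts 6, and 0 to 14 with 1 mouse left out. At the wider thresholds 458 genes were higher and 373 lower, against 201 and 761 under library totals and 339 to 579 and 273 to 526 with 1 mouse left out. Leaving out D-gal + MSCs replicates 3 and 4, chosen after seeing the data, gave 14 called and 261 higher, and leaving out PBS mouse 2 with MSCs mouse 4 gave 225 lower. Of the 8 genes 2 were higher, against 0 in each of these settings and under library totals, and 0 to 3 with 1 mouse left out. None of the 8 was called after adjustment under any of the 19 alternatives, and Ehhadh, Abcd3, Phyh and Crot kept their sign under all of them.

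Signs turned for the genes below, among them Ephx2 and Ech1 with log2FCs of 0.75 and 0.59 in all mice, and the cause was not tested. Under library totals log2FC was -0.026 for Acox3, -0.13 for Acaa1a, -0.15 for Abcd2, -0.083 for Hacl1, -0.051 for Crat and -0.051 for Acbd5. With D-gal + MSCs replicates 3 and 4 left out it was -0.080 for Hsd17b4, -0.043 for Acaa1a, -0.060 for Hacl1, -0.024 for Eci2, -0.087 for Ech1, 0.024 for Acot8, -0.086 for Crat, -0.057 for Ephx2 and 0.018 for Rxrb, and the log2 ratio of Crot over Crat differed by 0.075. With PBS mouse 2 and MSCs mouse 4 left out it was -0.013 for Acaa1a, 0.078 for Acot8, -0.023 for Crat, -0.0014 for Pex11a and 0.037 for Rxrb. Limma-voom gave -0.010 for Abcd2. With 1 mouse left out the ranges were -0.11 to 0.20 for Abcd2, -0.11 to 0.043 for Scp2, -0.020 to 0.16 for Hacl1, -0.15 to 0.10 for Acot8, -0.022 to 0.26 for Crat, -0.012 to 0.19 for Acbd5, -0.095 to 0.072 for Nudt19 and -0.11 to 0.023 for Rxrb.

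The replicate numbers were not shown to pair mice, since deviations of mice with the same number correlated at -0.00, 0.16, 0.10 and 0.22 and only replicate 4 correlated best with its own number. With the replicate block 78 genes were called, none of the 8 among them, and Abcd2 had a log2FC of -0.0089. With 234 counts at the lowest, counting error reached 6.54% of a gene's level. A ratio within a library could not reach a p under 0.0286, or under 0.1 with 3 mice against 3.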
